A study of Mus musculus with 4 samples.

Results

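The 10 genes described here handle long-chain fatty acids on their way into liver cells. They are Cd36, Slc27a2 and Slc27a4 (uptake), Fabp1, Fabp2 and Fabp4 (binding in the cytosol), Acsl1 and Acsl5 (activation to acyl-CoA), and Lpl and Vldlr (release and capture of lipoprotein fat). They were taken by gene symbol from tables of 24346 symbols, and all 10 were found, each with a mean of at least 1 FPKM (read counts scaled to transcript length and to the reads of the library) over the 4 libraries. The tissue was liver of male ob/ob mice, an obese strain without functional leptin. Feeding began at 6 weeks of age and lasted 4 weeks. CD was a chow diet with 5% corn oil and 10% sucrose, and WD a western type diet with 20% cocoa butter and 34% sucrose. Both contained 1% cholesterol, so the controls ate added cholesterol too. CD+7KC and WD+7KC also contained 0.01% 7-ketocholesterol (7KC), an oxidation product of cholesterol. Each group had 1 library, and the number of mice behind a library is not given in the sources used here. Differences between groups could thus not be held against any spread of replicates, and p-values were not computed.

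Fatty acids reach the liver from the blood, bound to albumin, and inside lipoprotein particles. CD36 and the SLC27 family (fatty acid transport proteins) help them enter cells, FABP proteins carry them through the cytosol, and ACSL enzymes couple them to coenzyme A, which traps them for oxidation or for storage as triglyceride. Lipoprotein lipase splits the triglyceride of circulating particles at the vessel wall, and the VLDL receptor takes up such particles. Adult liver normally makes little of these last 2 proteins, whereas FABP1 is among the most abundant proteins of hepatocytes, and FABP4 is best known from fat cells and macrophages.

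The FPKM values summed to between 602059 (WD+7KC) and 715605 (CD), and the whole-read steps of low values put the depth at 9440000 to 12120000 fragments. Rescaling to equal sums (TPM) raised the median change of all genes in WD+7KC relative to WD by 0.21 on the log2 scale. Scaling to the 6 hepatocyte markers raised it by 0.47. All 6 hepatocyte markers were present, with Alb at 30014 to 35981 FPKM. Intervals below are 95% counting intervals from the estimated reads (exact Poisson for levels, exact Clopper-Pearson for log2 fold changes). They cover counting error only, not the variation between mice.

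Fabp1 was by far the most abundant of the 10 transcripts, and Vldlr the least. The level of Fabp1 was 19129 FPKM for CD, 15788 for CD+7KC, 18683 for WD and 13842 for WD+7KC, which made it the fourth or the fifth highest gene of each library and 2.27% to 2.67% of its FPKM sum. Slc27a2 came next at 486 to 836 FPKM. Fabp2, Acsl1, Acsl5 and Cd36 lay between 138 and 289 FPKM, Fabp4 between 66.5 and 143, Lpl and Slc27a4 between 14.7 and 34.6, and Vldlr between 1.35 and 2.47. The order in the middle differed between libraries. In CD it ran Fabp2, Acsl1, Acsl5, Cd36, with overlapping intervals for Fabp2 (277 to 300) and Acsl1 (269 to 280). In WD the levels of Acsl5 (224 to 233) and Acsl1 (216 to 227) overlapped. In WD+7KC Acsl5 led, and Acsl1 stood behind Cd36 at 154 FPKM, where its interval (151 to 158) met that of Fabp4 (135 to 151).

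**Figure D1:**
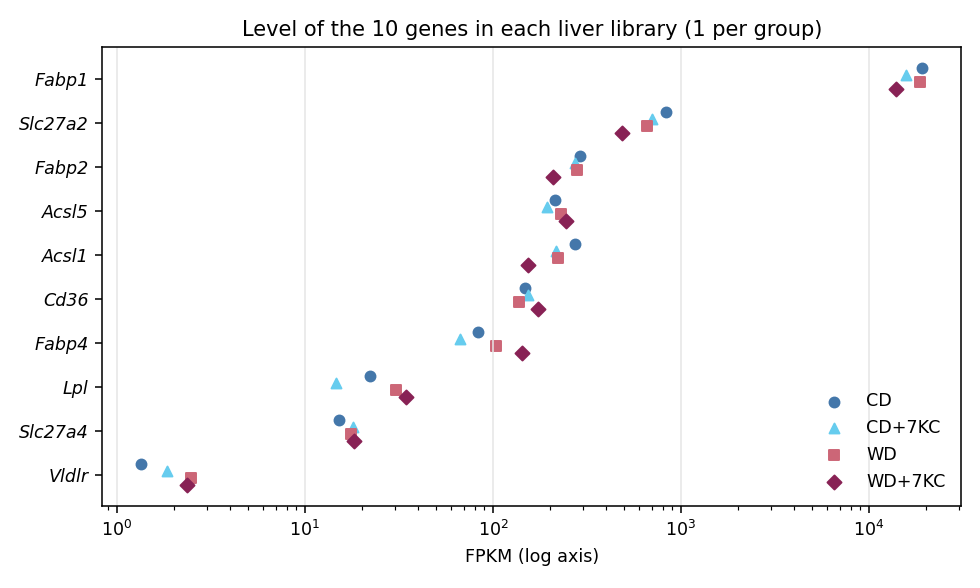
FPKM of each of the 10 genes (vertical axis) on a log axis, with 1 point per library for CD, CD+7KC, WD and WD+7KC. The genes span from 1.35 FPKM (Vldlr in CD) to 19129 FPKM (Fabp1 in CD), and the 4 points of a gene differ most for Lpl (2.36-fold) and Fabp4 (2.14-fold).

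Adding 7KC went with lower levels of Fabp1, Fabp2, Slc27a2 and Acsl1 under either diet with the deposited values, while Fabp4 and Lpl were lower with 7KC on CD and higher with 7KC on WD. Log2 fold changes are of FPKM + 0.1. In CD+7KC relative to CD, 3 members had higher and 7 lower values (median -0.20). None lay beyond 1 or -1, used here as the threshold in every comparison (for genes higher in WD+7KC than in WD the study used the same upper limit), where the background was 1.18% of 10686 genes above 1 and 0.861% below -1. In WD+7KC relative to WD, 5 had higher and 5 lower values (median -0.009), and again none lay beyond the threshold, which 2.71% of all genes exceeded upward and 0.767% downward. Rescaled to equal sums, 488 genes were above 1 and 49 below -1 on WD, in place of 290 and 82. Scaled to the hepatocyte markers, 272 were above and 49 below on CD, in place of 126 and 92. The medians over all genes were -0.005 and -0.030. Fabp1, Fabp2, Slc27a2 and Acsl1 were lower by 0.08 to 0.34 on CD and by 0.42 to 0.52 on WD on the log2 scale. For Fabp2 on CD the counting interval (-0.16 to 0.006) included 0. Scaled to the 6 hepatocyte markers, Fabp1, Fabp2 and Slc27a2 on WD and Fabp2 and Slc27a2 on CD changed sign, and scaled to Alb so did Fabp2 on CD.

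For the diets, WD relative to CD gave 5 members higher and 5 lower, with a median of 0.03 (all genes -0.006). None passed the threshold, against a background of 2.61% above 1 and 2.04% below -1. In WD+7KC relative to CD+7KC, 6 members had higher and 4 lower values (median 0.10, all genes -0.024). Here 2 of 10, Fabp4 and Lpl, were above 1, against 5.10% of all genes, and none was below -1, against 2.81%. Scaled to the hepatocyte markers, 435 genes were above and 150 below for the diets without 7KC, and 1152 above and 157 below with it, in place of 279 and 218, and of 545 and 300. These comparisons share libraries with those of 7KC, so that CD+7KC, where Fabp4 and Lpl were lowest, also enters this one.

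**Figure D2:**
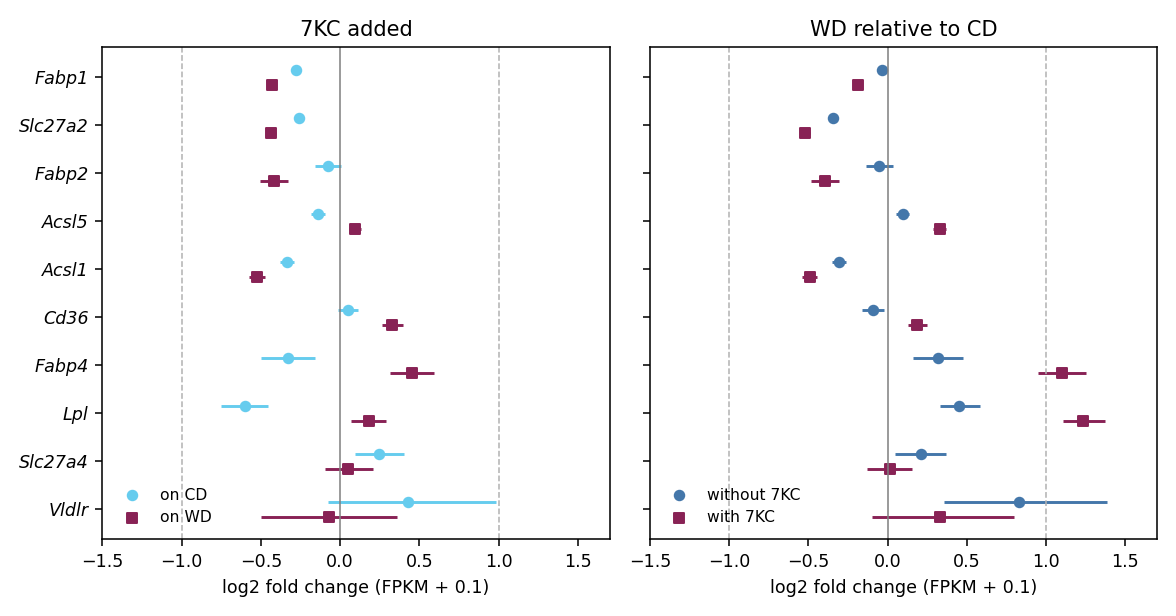
Log2 fold change of each gene (horizontal axis, FPKM + 0.1) for 7KC added on CD and on WD (left panel) and for WD relative to CD without and with 7KC (right panel), with points for the values, bars for 95% counting intervals and dashed lines at 1 and -1. Fabp4 and Lpl lie on opposite sides of 0 with 7KC on the 2 diets (-0.33 and 0.45, -0.60 and 0.18), and only these 2 genes pass 1, in the comparison of diets with 7KC.

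Of the uptake genes, Cd36 encodes a scavenger receptor that binds long-chain fatty acids and oxidized lipoproteins. The gene lies at chr5:17781690-17888801 (GRCm38, minus strand, GENCODE vM21) and has 5 RefSeq mRNAs. Cd36 was at 147 FPKM for CD, 153 for CD+7KC, 138 for WD and 174 for WD+7KC. WD+7KC stood highest and the other libraries within a narrow band below it. The log2 fold change with 7KC was 0.33 on WD (interval 0.27 to 0.39) and 0.05 on CD (-0.01 to 0.11), so that a difference on CD was not detectable at this depth. Under the alternative scalings the change on WD ranged up to 0.81 and kept its sign.

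Slc27a2 encodes FATP2, a transporter that also activates very long-chain fatty acids. It lies at chr2:126552407-126588243, plus strand. Slc27a2 was at 836 FPKM for CD, 697 for CD+7KC, 658 for WD and 486 for WD+7KC. Its level was thus highest in CD and lowest with both WD and 7KC. The log2 fold change with 7KC was -0.26 (-0.29 to -0.23) on CD and -0.44 (-0.47 to -0.41) on WD, and the diet itself gave -0.34 (-0.37 to -0.32) without 7KC. Exons of the gene overlap those of Gm26697 on the other strand, and whether reads were assigned by strand is not given in the sources used here.

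Slc27a4 (chr2:29802634-29817522, plus strand) encodes FATP4, which is abundant in gut and skin. Its level was 15.2 FPKM for CD, 18.1 for CD+7KC, 17.6 for WD and 18.2 for WD+7KC, with CD lowest and the others close together. Slc27a4 was higher with 7KC on CD by 0.25 (0.10 to 0.40), while on WD the change of 0.05 had an interval from -0.10 to 0.20.

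Of 6 other uptake genes, 3 had a mean of at least 1 FPKM, and none passed the threshold in any of the 4 comparisons. Slc27a5, the liver transporter FATP5 that also couples bile acids to coenzyme A, was at 377 FPKM for CD, 338 for CD+7KC, 235 for WD and 191 for WD+7KC, in the same order as Slc27a2. Slc27a1, an insulin-regulated transporter of muscle and fat, was at 1.44, 2.79, 0.977 and 1.61 FPKM in the same order of libraries, highest with 7KC on CD. Got2, whose mitochondrial enzyme is also found at the plasma membrane as a fatty acid binding protein, stayed between 265 and 315 FPKM. Slc27a2 made up 65.99% to 72.1% and Slc27a5 25.8% to 32.0% of the summed FPKM of the SLC27 family, while Slc27a4 went from 1.24% in CD to 2.62% in WD+7KC.

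Fabp1 encodes the liver fatty acid binding protein, and its promoter is a textbook target of PPAR-alpha, the fatty acid sensor that binds direct repeats of AGGTCA spaced by 1 base. Promoter windows from RefSeq (GRCm38.p6, 250 bases before to 50 after a start) were found for 8 of the 10 genes, in 10 windows. Fabp4 and Lpl had no window and were not searched. On both strands, with up to 2 mismatches among the 12 fixed letters, such a repeat was present in 2 of these windows, those of Fabp1 and Cd36, and in 3.86% of all 32851 windows. These 2 windows, all those with such a repeat, are shown with the matched bases in capitals. Fabp1 had a lower and Cd36 a higher deposited value in WD+7KC than in WD. The stretch of Fabp1 is chr6:71199629-71199826, plus strand, ending before the first exon of the annotation, with the match 67 to 55 bases before the RefSeq start and 1 mismatch. That of Cd36 is chr5:17835897-17836146, minus strand, before a start that lies inside the annotated gene, with the match 63 to 51 bases before it and 2 mismatches.
Fabp1: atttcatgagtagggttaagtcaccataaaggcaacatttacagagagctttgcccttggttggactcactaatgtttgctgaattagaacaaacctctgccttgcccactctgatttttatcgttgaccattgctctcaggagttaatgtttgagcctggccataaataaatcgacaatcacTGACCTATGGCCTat
Cd36: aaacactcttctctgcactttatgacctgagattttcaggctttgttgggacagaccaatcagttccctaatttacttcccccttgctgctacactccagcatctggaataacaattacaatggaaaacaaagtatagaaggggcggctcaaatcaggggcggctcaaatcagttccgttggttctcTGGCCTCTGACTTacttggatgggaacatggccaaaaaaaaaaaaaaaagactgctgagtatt

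A single AGGTCA with no mismatch, on either strand, was found in 3 of the 10 windows (Fabp1, Cd36 and Slc27a2), against 16.3% of all windows, and in Fabp1 1 of 2 such matches overlaps the repeat. A TATAAA on either strand was found in the Fabp1 window alone among the 10, 30 to 25 bases before the start and past the printed stretch, against 13.6% of all windows. A match is only a stretch of letters and was not tested for binding.

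The levels of Fabp1 (chr6:71199827-71205023, plus strand) given above were lower in both 7KC libraries than in either library without it. The log2 fold change with 7KC was -0.28 (-0.29 to -0.26) on CD and -0.43 (-0.45 to -0.42) on WD. Scaled to the hepatocyte markers, these became -0.004 on CD and 0.046 on WD. WD relative to CD gave only -0.03 (-0.05 to -0.02) without 7KC and -0.19 (-0.21 to -0.17) with it. Both of these diet changes also changed sign under other scalings. As a share of Alb within the same library, which no scaling can move, Fabp1 was 54.5% for CD, 50.6% for CD+7KC, 51.9% for WD and 46.1% for WD+7KC. The hepatocyte markers moved the same way. In WD+7KC relative to WD all 6 were lower, with a median of -0.48, and in CD+7KC relative to CD 5 of 6 were lower, with a median of -0.27. Their summed level was 54847 FPKM for CD, 46197 for CD+7KC, 55459 for WD and 43100 for WD+7KC, and their part in the Fabp1 values was not tested.

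Fabp2, the intestinal-type fatty acid binding protein (chr3:122895072-122899506, plus strand), was at 289 FPKM for CD, 274 for CD+7KC, 278 for WD and 208 for WD+7KC. A single library, WD+7KC, stood apart below the others. The change with 7KC was -0.42 (-0.51 to -0.33) on WD and -0.08 (-0.16 to 0.006) on CD. Enterocyte markers were near 0, with a summed level of the 6 genes between 1.07 and 3.79 FPKM, and the defining markers Sis, Lct and Cdh17 were listed at 0 in CD and CD+7KC. Lct reached 2.49 FPKM in WD. Only Krt20 of that list had a mean of at least 1 FPKM.

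Fabp4, the adipocyte and macrophage fatty acid binding protein (chr3:10204088-10208576, minus strand), was at 83.5 FPKM for CD, 66.5 for CD+7KC, 104 for WD and 143 for WD+7KC. Both WD libraries were above both CD libraries, and 7KC went with the lowest value on CD and the highest on WD. The log2 fold change with 7KC was -0.33 (-0.50 to -0.16) on CD and 0.45 (0.32 to 0.59) on WD, and scaled to the hepatocyte markers it was -0.055 and 0.93. WD relative to CD gave 0.32 (0.16 to 0.48) without 7KC and 1.10 (0.95 to 1.25) with it. Of the adipocyte markers, Plin1 and Lep were listed at 0 in all 4 libraries, and Adipoq and Retn were listed at 0 in both WD libraries. In CD and CD+7KC, Adipoq was at 0.088 and 0.088 FPKM and Retn at 1.21 and 0.241. Cfd, which encodes the complement protease adipsin, was also lower in the WD libraries, opposite to Fabp4 across the diets. It went from 220.0 FPKM in CD and 63.2 in CD+7KC to 1.47 in WD and 0.115 in WD+7KC. The summed level of the 6 markers was 222 FPKM for CD, 64.1 for CD+7KC, 1.84 for WD and 0.463 for WD+7KC. Cfd made up nearly all of it in CD and CD+7KC and most of it in WD. Adrb3, at 0.455, 0.593, 0.366 and 0.348 FPKM in that order, was above Cfd in WD+7KC.

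Among 9 other binding genes, 8 had a mean of at least 1 FPKM. In WD+7KC relative to CD+7KC, 3 of the 8 were above 1, against 5.10% of all genes, and these were Fabp3, Fabp5 and Fabp7. Fabp5, the epidermal form made by macrophages and fat cells, was at 22.0 FPKM for CD, 15.3 for CD+7KC, 31.5 for WD and 36.1 for WD+7KC, the same order as Fabp4. Fabp3, the heart form, was at 0.419, 2.09, 5.37 and 5.88 FPKM in the same order of libraries, with log2 fold changes of 2.08 for 7KC on CD and 3.40 for WD relative to CD. Both of these rest on a CD value below 1 FPKM, and no reads or counting interval were estimated for this gene. Fabp7, the brain form, was at 6.71, 8.64, 10.1 and 20.3 FPKM, with WD+7KC far above the rest. Acbd3, a Golgi protein with an acyl-CoA binding domain, was at 9.08, 7.69, 5.55 and 6.48 FPKM, with both CD libraries higher. Against this, Fabp1 still supplied 97.1% to 97.9% of the summed FPKM of 7 FABP genes, and the share of Fabp4 went from 0.412% in CD+7KC to 1.001% in WD+7KC.

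The activating enzymes diverged. Acsl1, the main long-chain acyl-CoA synthetase of liver (chr8:46471037-46536051, plus strand), was at 274 FPKM for CD, 217 for CD+7KC, 222 for WD and 154 for WD+7KC. CD was highest, WD+7KC lowest and the other libraries were nearly level. The log2 fold change with 7KC was -0.34 (-0.38 to -0.29) on CD and -0.52 (-0.57 to -0.47) on WD, and WD relative to CD gave -0.31 without and -0.49 with 7KC. Scaled to the hepatocyte markers, the changes of Acsl1 shrank to -0.064 with 7KC on CD, -0.043 with 7KC on WD, and -0.13 and -0.11 for the diets without and with 7KC.

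Acsl5, a synthetase of mitochondria and endoplasmic reticulum that is also strong in intestine (chr19:55251938-55297720, plus strand), was at 214 FPKM for CD, 194 for CD+7KC, 229 for WD and 244 for WD+7KC. The WD libraries were above the CD libraries, by 0.10 (0.05 to 0.14) without 7KC and 0.33 (0.29 to 0.37) with it on the log2 scale. With 7KC it was -0.14 (-0.18 to -0.10) on CD and 0.09 (0.05 to 0.13) on WD, and the value on CD changed sign when scaled to Alb or to the hepatocyte markers. Its exons overlap those of Zdhhc6 on the other strand, so reads of the pair cannot be told apart if strand was not used.

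Within a library the ratio of Acsl1 to Acsl5 was 1.28 for CD, 1.12 for CD+7KC, 0.969 for WD and 0.633 for WD+7KC. Among 5 ACSL genes, Acsl1 went from 54.0% of the summed FPKM in CD to 36.5% in WD+7KC, and Acsl5 from 42.1% to 57.6%, while the sum itself was 508 and 423 FPKM. Of 8 other activation genes, 6 had a mean of at least 1 FPKM and none passed the threshold. Acsl4, which prefers arachidonic acid, was at 11.1, 9.27, 14.4 and 18.1 FPKM in CD, CD+7KC, WD and WD+7KC, ordered like Fabp4. Acsl3, a lipid droplet synthetase, was at 8.38, 5.56, 7.31 and 7.01 FPKM, lowest in CD+7KC. The mitochondrial medium-chain synthetase genes Acsm1 and Acsm5 were lower in both WD libraries, at 133, 135, 96.4 and 77.8 FPKM and at 60.8, 66.6, 46.1 and 39.8 FPKM in the same order.

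**Figure D3:**
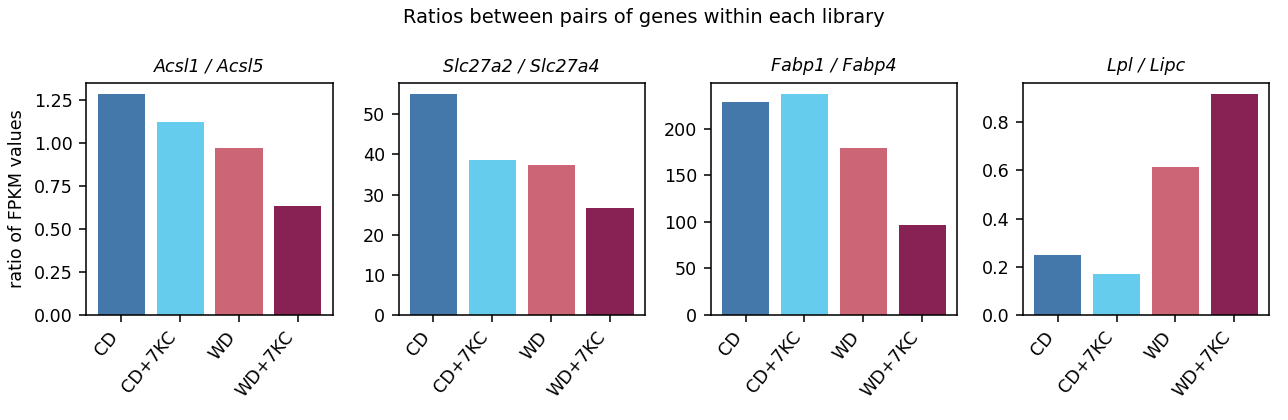
Ratios of FPKM values within each library (bars from 0, 1 bar per library) for Acsl1 to Acsl5, Slc27a2 to Slc27a4, Fabp1 to Fabp4 and Lpl to Lipc. Acsl1 to Acsl5 goes from 1.28 in CD to 0.633 in WD+7KC, and Lpl to Lipc from 0.250 to 0.917, with scaling between libraries playing no part.

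Lpl encodes lipoprotein lipase (chr8:68880491-68907448, plus strand), an enzyme of muscle, fat and macrophages. It was at 22.3 FPKM for CD, 14.7 for CD+7KC, 30.6 for WD and 34.6 for WD+7KC. Both WD libraries were above both CD libraries, and CD+7KC was the lowest. The log2 fold change with 7KC was -0.60 (-0.75 to -0.46) on CD, where 2.91% of all genes tested had a lower value, and 0.18 (0.07 to 0.29) on WD. WD relative to CD gave 0.45 (0.33 to 0.58) without 7KC and 1.23 (1.10 to 1.37) with it, the largest change of the 10 genes.

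Vldlr, the VLDL receptor gene (chr19:27216484-27254231, plus strand), was at 1.35 FPKM for CD, 1.85 for CD+7KC, 2.47 for WD and 2.35 for WD+7KC. These values rest on about 54, 74, 85 and 104 reads, computed with the shorter of its 2 mRNAs. CD was the lowest library. WD relative to CD gave 0.83 (0.36 to 1.38), whereas the intervals with 7KC on CD (0.43, -0.08 to 0.98), with 7KC on WD (-0.07, -0.50 to 0.36) and for the diets with 7KC (0.33, -0.10 to 0.80) all included 0. At this depth no difference was detectable in those 3 comparisons.

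The partners of the lipase and the receptor were 16 genes, of which 15 were in the tables and 14 had a mean of at least 1 FPKM. Lipc, the hepatic lipase of hepatocytes, ran opposite to Lpl across the diets, at 89.2 FPKM for CD, 86.6 for CD+7KC, 49.7 for WD and 37.8 for WD+7KC. The ratio of Lpl to Lipc was therefore 0.250, 0.170, 0.615 and 0.917 in that order. Gpihbp1, whose protein anchors the lipase to capillaries, was at 21.5 FPKM for CD, 33.0 for CD+7KC, 17.4 for WD and 35.7 for WD+7KC, higher in both 7KC libraries and the only 1 of the 14 above 1, at 1.04 for 7KC on WD. Apoc1, an apolipoprotein that inhibits the lipase, was at 27820 FPKM for CD, 25009 for CD+7KC, 18088 for WD and 12154 for WD+7KC. Together with Lipc it made the 2 of 14 genes below -1 in WD+7KC relative to CD+7KC, at -1.04 and -1.20. Over all genes, 2.71% were above 1 for 7KC on WD, and 2.81% were below -1 in WD+7KC relative to CD+7KC. Lipg, the endothelial lipase gene, was at 4.96, 7.54, 7.62 and 6.27 FPKM in the order CD, CD+7KC, WD and WD+7KC. Medians of the 14 genes were -0.04 and -0.21 with 7KC on CD and WD, and -0.17 and -0.15 for the diets without and with 7KC.

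Because Fabp4, Lpl and Cd36 are also made by cells other than hepatocytes, markers of those cells were read in the same libraries. In whole liver, fewer cells of a type and less RNA per cell cannot be told apart. All 11 macrophage and Kupffer cell markers were higher with 7KC on both diets and higher in WD than in CD, and their summed level was 200.1 FPKM for CD, 326 for CD+7KC, 376 for WD and 711 for WD+7KC. Fabp4 and Lpl did not share the order of this sum, since CD+7KC was above CD for the markers and below CD for these genes. Fabp4 amounted to 41.7% of the marker sum for CD, 20.4% for CD+7KC, 27.7% for WD and 20.1% for WD+7KC.

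The 5 markers of lipid-associated macrophages summed to 134 FPKM for CD, 81.8 for CD+7KC, 202 for WD and 306 for WD+7KC, which is the order of Fabp4, Fabp5 and Lpl. Spp1, the osteopontin gene, carried most of this sum, with 98.7, 43.7, 124 and 183 FPKM. With 7KC on CD, 3 of the 5 markers were higher and only Spp1 and Trem2 were lower, so the order of the sum was not that of the list. Of the other 4 markers only Trem2, a lipid-sensing receptor gene, shared the order, at 2.92, 2.64, 6.46 and 9.52 FPKM. Cd9 was nearly level between CD (28.1 FPKM) and CD+7KC (28.4). Gpnmb, a lysosomal glycoprotein, was at 2.25, 3.77, 11.2 and 24.4 FPKM and Mmp12, the macrophage elastase, at 2.37, 3.35, 6.29 and 17.9 FPKM, both higher in CD+7KC than in CD. All 5 markers were higher in WD+7KC than in WD and in WD than in CD.

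The 9 endothelial markers summed to 64.5 FPKM for CD, 93.1 for CD+7KC, 51.5 for WD and 146 for WD+7KC. All 9 were above 1 in WD+7KC relative to WD, against 2.71% of all genes, with a median of 1.504. Kdr, the VEGF receptor gene, was at 2.09 FPKM in WD and 8.36 in WD+7KC. Cd36, which capillary endothelium also makes, followed the order of this sum (WD, CD, CD+7KC, WD+7KC) over a range of 1.26-fold, and so did Gpihbp1. Clec4g carried the largest part of the sum, at 26.3, 48.7, 22.6 and 64.2 FPKM for CD, CD+7KC, WD and WD+7KC. Not all markers shared the order of the sum. In WD relative to CD, 2 of the 9 were higher, and with 7KC on CD 1 was lower. For Cd36 the step from CD to CD+7KC was not detectable at this depth (0.05, interval -0.01 to 0.11). Its change for WD relative to CD, -0.09, became 0.08 when scaled to the hepatocyte markers. The 6 stellate cell markers summed to between 141 and 178 FPKM, lowest in CD+7KC. The part of any of these cells in the values of the 10 genes was not tested.

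**Figure D4:**
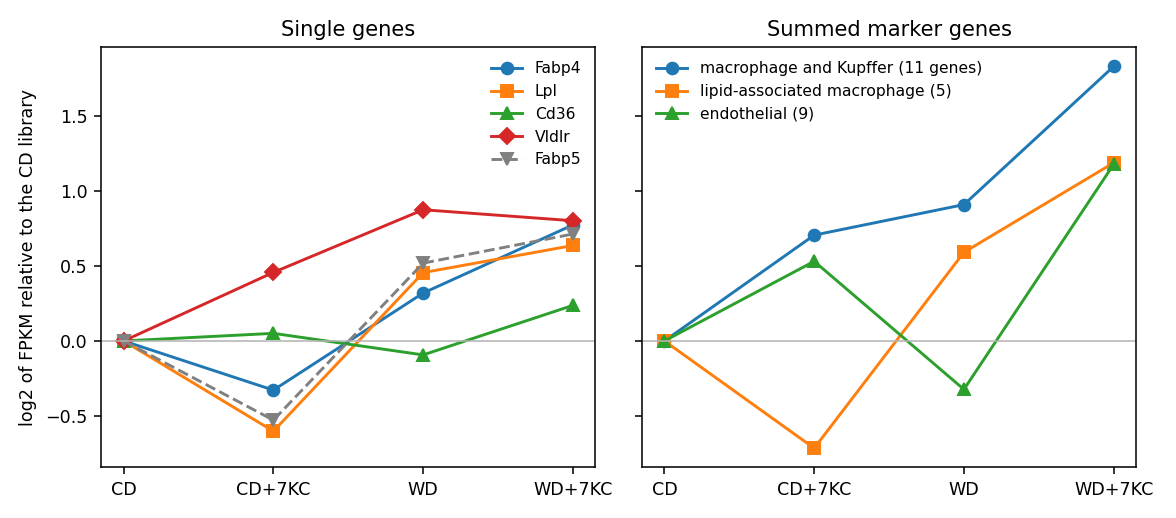
Log2 of FPKM relative to the CD library (vertical axis) in the 4 libraries, for Fabp4, Lpl, Cd36, Vldlr and Fabp5 (left panel) and for the summed FPKM of 3 marker lists (right panel), with lines that only join the 4 separate libraries. Fabp4, Fabp5, Lpl and the lipid-associated macrophage sum are lowest in CD+7KC and highest in WD+7KC, whereas the macrophage and Kupffer sum is lowest in CD at 200.1 FPKM. Spp1 carries most of the lipid-associated macrophage sum, and 3 of its 5 markers are higher in CD+7KC than in CD.

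Of 11 transcription factor genes that act on these pathways, none was above 1 or below -1 with 7KC on either diet. Pparg, the fat cell regulator that is raised in fatty liver, was at 32.1 FPKM for CD, 26.5 for CD+7KC, 22.5 for WD and 17.9 for WD+7KC, opposite to Fabp4 across the diets. Ppara was at 59.0, 50.1, 52.3 and 42.3 FPKM in that order. Mlxipl, the carbohydrate response factor ChREBP, was the only 1 of the 11 below -1 for WD relative to CD, without (-1.18) and with 7KC (-1.46). It was at 51.0, 63.2, 22.4 and 22.9 FPKM, and over all genes 2.04% and 2.81% were below -1 in these comparisons. Ppard was at 2.08, 1.4997, 1.71 and 2.64 FPKM. Srebf1, the lipogenic regulator SREBP-1, was at 77.9, 81.4, 78.0 and 62.3 FPKM, with WD+7KC apart from the rest.

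Of 11 PPAR-alpha target genes, 7 were higher and 4 lower with 7KC on CD (median 0.03), and 2 were higher and 9 lower on WD (median -0.18), none beyond the threshold in any of the 4 comparisons. Fgf21, a liver hormone, was at 9.68, 10.02, 18.4 and 18.3 FPKM in CD, CD+7KC, WD and WD+7KC, higher in both WD libraries. Pdk4, a kinase that spares glucose, was at 12.6, 9.38, 7.08 and 10.5 FPKM, and the omega-hydroxylase gene Cyp4a10 at 221, 245, 149 and 142 FPKM. The 6 steatosis genes linked to PPAR-gamma did not move together. Cidea, a lipid droplet protein gene, was the only 1 below -1, for WD relative to CD without (-1.54, against 2.04% of all genes) and with 7KC (-1.32, against 2.81%). It was at 143 FPKM for CD, 99.5 for CD+7KC, 49.0 for WD and 39.7 for WD+7KC, while its relative Cidec was at 148, 115, 202 and 171 FPKM. Plin5, a lipid droplet coat gene, was at 35.7, 51.0, 60.5 and 51.9 FPKM, and Mogat1, a monoacylglycerol acyltransferase gene, at 21.2, 26.3, 11.8 and 16.6 FPKM.

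The genes whose pattern over the 4 libraries came closest to that of Lpl were Alcam, Fabp5 and 1110007C09Rik, with Euclidean distances of 0.059, 0.062 and 0.074 between log2 values centred on their means. Nearest to Fabp4 were Rab3a (0.043), Marveld2 (0.095) and Synpo (0.097), each below 6 FPKM in every library. Nearest to Acsl1 were Ap4s1 (0.062), Slc10a2 (0.081) and Pdcd4 (0.085). With 4 libraries and 10686 genes, close matches are many, and the distances are descriptions.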

How the data were processed

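Per the labels and the study's methods, the authors prepared TruSeq stranded mRNA libraries from liver, sequenced single-end reads of 75 bases, aligned these to mm10 (GRCm38) by means of TopHat2 2.0.13, Bowtie2 2.2.3 and SAMtools 0.1.19, and computed FPKM with Cufflinks 2.2.1. The deposited files hold 1 FPKM per symbol for each library. The annotation, the Cufflinks options and any use of strand are not given in the sources used here.

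The members and gene lists were chosen with earlier results of these data known. Log2 fold changes used a pseudocount of 0.1 FPKM. Counts of genes past 1 or -1 were taken over the 10686 genes whose 4 libraries averaged 1 FPKM or more. All members are named, and from each other list up to 4 genes with the largest absolute change in any comparison among genes with that mean. Alb, Ppara, Sis, Lct, Cdh17, Plin1, Lep, Adipoq, Retn, Adrb3, Cd9 and Clec4g were named after their values had been seen. A gene that the naming rule selected is not reported here. The ratios and family shares within a library were also chosen after the values had been seen. Similar patterns were sought for the 3 members with the largest range.

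Reads per gene were estimated from FPKM, the depth and the RefSeq mRNA length minus 200 bases (the shortest mRNA for 3 members with several). The depth came from the whole-read steps of values below 6.5 reads in 13988 genes with 1 mRNA over 400 bases. At the estimate, 71.0% to 72.8% of these values lay within 0.1 of a whole read. Positions are from GENCODE vM21 and promoters from RefSeq. Alternatives were pseudocounts of 1, 0.01 and none, TPM, upper-quartile and median-ratio scaling, rescaling without the 20 highest genes, no filter, and a threshold of 1.5-fold. Scaling to Alb and to the 6 hepatocyte markers came later, chosen after seeing the data. Scripts were checked on simulated FPKM tables. Python 3.11.15, numpy 2.4.6, pandas 2.3.3, scipy 1.17.1 and matplotlib 3.10.9 were used.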

Additional observations from a re-analysis of the deposited data

Results flagged for a closer look

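In 4 of the 10 genes the change with 7KC had opposite signs on the 2 diets, with 1 library per group, so that the difference itself was not tested. The log2 change on WD minus that on CD was 0.78 for Fabp4 (0.45 and -0.33), 0.78 for Lpl (0.18 and -0.60), 0.23 for Acsl5 (0.09 and -0.14) and -0.50 for Vldlr (-0.07 and 0.43). For Fabp4, Lpl and Acsl5 both counting intervals lay away from 0, on opposite sides, and for Vldlr both included 0. Rescaled to equal sums, Vldlr was higher with 7KC on both diets, and scaled to Alb so were Vldlr and Acsl5, while Fabp4 and Lpl kept opposite signs under every scaling and pseudocount tried. Scaled to the hepatocyte markers, however, the change on CD was only -0.055 for Fabp4 and -0.33 for Lpl.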

How the results depend on the processing

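No paired analysis was possible because each group has 1 library, which also leaves no replicate to omit. Of the 40 log2 fold changes (10 genes in 4 comparisons), 29 kept their sign under all 9 settings. All 11 that did not changed sign under scaling to Alb, to the 6 hepatocyte markers, to equal sums or without the 20 highest genes. Fabp4 and Lpl were above 1 in WD+7KC relative to CD+7KC under each of them. Depth limits Vldlr most, at 54 to 104 estimated reads.

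With a threshold of 1.5-fold, 1 gene (Vldlr) was above it for WD relative to CD, and 1 (Lpl) below it for CD+7KC relative to CD. The median of the 10 genes was -0.031 for CD+7KC relative to CD scaled to Alb, and 0.072 scaled to the hepatocyte markers. For WD relative to CD these were -0.0056 and 0.21. For WD+7KC relative to CD+7KC it was 0.31 at equal sums, 0.29 without the 20 highest genes and 0.48 with the hepatocyte markers. For WD+7KC relative to WD it was 0.20 at equal sums, 0.25 with Alb and 0.46 with the hepatocyte markers.

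Counts over all genes are given in the order CD+7KC relative to CD, WD relative to CD, WD+7KC relative to CD+7KC and WD+7KC relative to WD. Without a filter 603, 828, 1274 and 978 were above the threshold and 456, 683, 733 and 440 below it. At 1.5-fold these were 469, 916, 1261 and 800 above and 325, 740, 889 and 324 below. With a pseudocount of 1 FPKM, 58, 136, 296 and 127 were above, while 42, 124 and 41 were below in the first, the second and the last comparison. Scaled to the hepatocyte markers, 272, 435, 1152 and 886 were above, and 49, 157 and 35 below in all but the second. Scaled to Alb, 203 were above for CD+7KC relative to CD. For WD+7KC relative to WD, 537 were above and 43 below scaled to Alb, 488 and 49 at equal sums, and 444 and 51 without the 20 highest genes. These shifts follow from the settings themselves, which add low genes, move the threshold, shrink low values or shift all genes of a library.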
